A study of Mus musculus with 35 samples.

Results

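Old liver 38 h after removal of 70% of its mass was compared with old liver 38 h after sham surgery. The 5 arrays were chosen by their labels alone: 3 arrays of partial hepatectomy and 2 of sham surgery, of 35 arrays in all. Both groups were male CB6F1 hybrid mice of 25 to 27 months, anesthetized with avertin and isoflurane. In the sham group the liver was handled but not cut. The remaining arrays were old livers untreated (0 h) or 24 and 48 h after either operation, and livers of young mice of 5 to 6 months, untreated or 24, 38 and 48 h after either operation. Young mice came from the Jackson Laboratories and old mice from the National Institute on Aging, so age and supplier cannot be told apart. Total liver RNA was labelled with biotin and hybridised to Affymetrix arrays. The values are log2 scale RMA values, 1 probe set for each of 18194 genes, and a difference of 1 is a 2-fold change. The labels do not say that the replicates were separate animals, and if they were not, the p-values measure technical spread only.

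After partial hepatectomy the hepatocytes that remain leave their resting state and divide until liver mass is restored. Early response transcription factors come first, then G1 cyclins, then the enzymes that license origins and copy DNA, and finally the genes of mitosis. In old rodents this sequence is known to be delayed and reduced. While it runs, the liver still has to make bile acids, break down amino acids and clear drugs.

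At 38 h, 16 of 32 DNA synthesis genes and 9 of 24 origin licensing genes were higher after hepatectomy than after sham surgery, and 7 of 21 bile acid genes and 9 of 28 amino acid and urea genes were lower, with no call in the other direction in these lists. Rrm2, a subunit of ribonucleotide reductase, had the largest rise of the replication genes at 3.50 on the log2 scale (SE 0.60, 3 arrays against 2), an 11.3-fold difference. Cyp8b1, the sterol 12-alpha-hydroxylase of bile acid synthesis, was lower by a log2 difference of -3.28 (SE 0.68). In a limma fit over all 35 arrays 871 of 18194 genes (4.79%) passed an adjusted p of 0.05, of which 418 rose (2.3%) and 453 fell (2.49%). Centring each array on its median gave 297 higher and 615 lower, so that 32.6% of the calls were higher, against 48.0%. The arrays of the 2 groups did not overlap for 856 of the 871 genes. Over all genes, 18.6% were higher on every hepatectomy array than on either sham array and 13.8% were lower on every one.

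The calls rested on the spread pooled over all groups. Where the 3 hepatectomy arrays lay far apart, this spread is below their own, and the SEs and adjusted p-values can be too small. The SD of the 3 hepatectomy arrays was 1.87 for Mcm5, 1.74 for Mcm6 and 1.58 for Cdk1, beside SEs of 0.62, 0.58 and 0.50. With the 5 arrays alone, limma called 0 genes, with 1440 at an unadjusted p under 0.05, and with the old arrays alone it called 147. Leaving out sham replicate 2 left 96 calls and leaving out sham replicate 1 left 345. Leaving out hepatectomy replicate 2 gave 1670.

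One array stood apart. Hepatectomy replicate 3 correlated at 0.945 and 0.947 with replicates 1 and 2 over all genes, while those correlated at 0.993 with each other and the shams at 0.992. Its closest array was replicate 1 of old liver 24 h after hepatectomy, at 0.993. Outside the old hepatectomy groups at 24 and 38 h, the median correlation of an array with its own group was 0.988 to 0.996. Without replicate 3 the fit called 549 genes, 332 higher (1.82%) and 217 lower (1.19%). Of the 418 rises 200 were called again (47.8%), and of the 453 falls 183 (40.4%), which made up 60.2% and 84.3% of the calls without it. All 871 differences kept their sign, but for the 856 genes without overlap between the groups this was fixed in advance. Replicate 3 was the lowest of the hepatectomy arrays for 75.7% of the genes that fell and the highest for 51.4% of those that rose, against 38.3% and 42.9% over all genes. Values without it are given beside many results. Of the 83 named genes that passed, 48 passed without it, and most of the 35 others are said to have been lost.

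**Figure D1:**
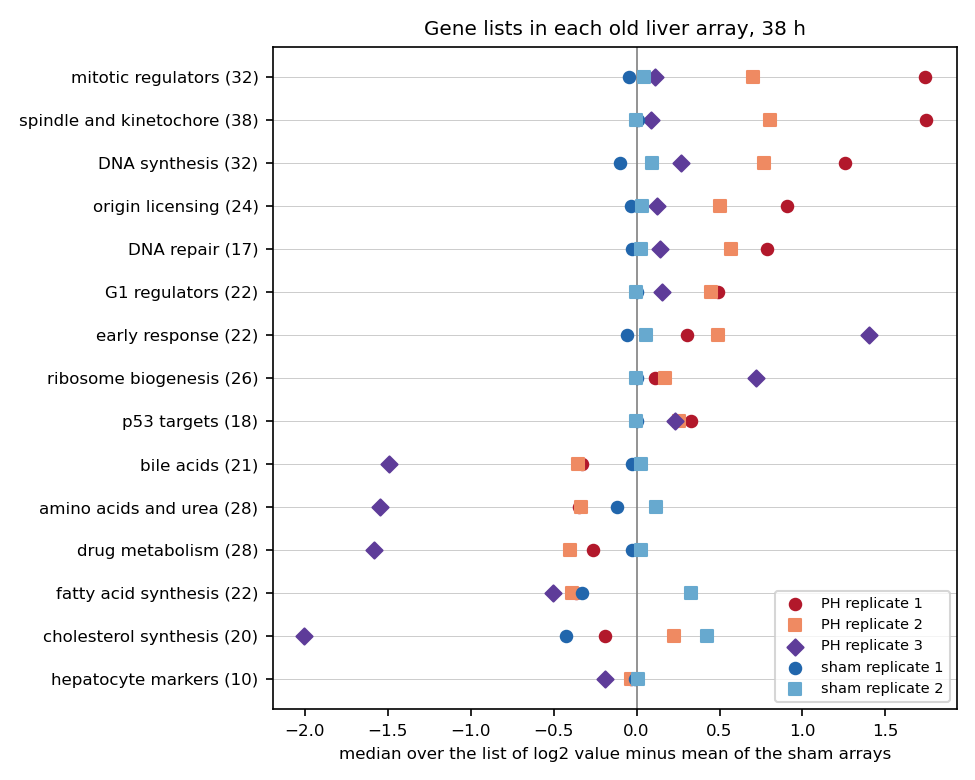
Median over each gene list (number of measured genes in brackets) of the log2 value on an array minus the mean of the 2 sham arrays, for the 3 hepatectomy arrays and both shams. The mitotic list stood at 1.74, 0.70 and 0.11 on hepatectomy replicates 1, 2 and 3, and the bile acid list at -0.33, -0.36 and -1.49.

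Replication genes were highest on replicate 1 and lowest on replicate 3, as the plot of list medians by array shows. For the DNA synthesis list the medians were 1.26, 0.77 and 0.27 on replicates 1, 2 and 3, and for the spindle and kinetochore list 1.74, 0.80 and 0.09. The amino acid and drug metabolism lists were also lowest on replicate 3, where they were farthest from the shams: the amino acid and urea list stood at -0.35, -0.33 and -1.55, and the drug metabolism list at -0.26, -0.40 and -1.58. The early response list stood at 0.30, 0.49 and 1.40. In whole liver RNA, fewer cells of a type and less RNA per cell cannot be told apart.

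The promoters of leading replication and mitosis genes are printed to show which short words known from cell cycle promoters they hold. Genes were taken by size of rise, and those whose promoter held none of the words were passed over. Each printed promoter therefore holds a word by choice. Dbf4 and Mcm4 rose more than Cdk1 and are not printed. Each is the 250 bases before the start, 5′ to 3′, from RefSeq (GRCm38.p6). Capitals mark 3 kinds of word on either strand: the E2F words TTTGGCGC, TTTCCCGC, TTTGCCGC and TTTCGCGC, the CHR word TTTGAA, and CCAAT. Words that overlap run together in capitals. The regions are chr1:128359706-128359955 (minus strand), chr8:75109259-75109508 (plus), chr10:69352913-69353162 (minus), chr4:124936918-124937167 (minus), chr4:52438971-52439220 (plus) and chr12:24708004-24708253 (plus).
Mcm6: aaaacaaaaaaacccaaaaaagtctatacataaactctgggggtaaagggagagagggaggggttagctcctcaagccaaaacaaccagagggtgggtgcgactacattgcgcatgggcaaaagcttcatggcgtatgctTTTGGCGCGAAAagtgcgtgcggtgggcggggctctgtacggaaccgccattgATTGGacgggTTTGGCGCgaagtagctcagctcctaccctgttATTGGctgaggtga
Mcm5: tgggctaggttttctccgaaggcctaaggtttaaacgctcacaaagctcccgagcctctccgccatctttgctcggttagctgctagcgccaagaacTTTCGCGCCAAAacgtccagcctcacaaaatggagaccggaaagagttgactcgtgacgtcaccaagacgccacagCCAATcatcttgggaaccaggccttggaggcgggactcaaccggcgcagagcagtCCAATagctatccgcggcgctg
Cdk1: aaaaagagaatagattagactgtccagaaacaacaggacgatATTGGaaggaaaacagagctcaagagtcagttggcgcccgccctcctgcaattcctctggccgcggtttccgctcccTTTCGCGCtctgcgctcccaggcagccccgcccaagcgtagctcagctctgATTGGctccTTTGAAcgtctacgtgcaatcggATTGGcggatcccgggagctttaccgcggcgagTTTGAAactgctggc
Cdca8: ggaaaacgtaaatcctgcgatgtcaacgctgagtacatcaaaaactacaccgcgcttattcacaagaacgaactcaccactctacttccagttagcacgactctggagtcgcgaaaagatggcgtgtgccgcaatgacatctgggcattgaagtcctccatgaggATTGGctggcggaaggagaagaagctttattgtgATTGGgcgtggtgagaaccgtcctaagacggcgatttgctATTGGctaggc
Smc2: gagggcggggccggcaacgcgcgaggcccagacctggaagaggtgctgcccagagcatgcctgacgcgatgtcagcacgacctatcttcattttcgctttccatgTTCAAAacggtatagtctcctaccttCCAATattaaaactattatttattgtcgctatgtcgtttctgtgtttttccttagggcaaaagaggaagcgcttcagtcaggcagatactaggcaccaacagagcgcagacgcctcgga
Rrm2: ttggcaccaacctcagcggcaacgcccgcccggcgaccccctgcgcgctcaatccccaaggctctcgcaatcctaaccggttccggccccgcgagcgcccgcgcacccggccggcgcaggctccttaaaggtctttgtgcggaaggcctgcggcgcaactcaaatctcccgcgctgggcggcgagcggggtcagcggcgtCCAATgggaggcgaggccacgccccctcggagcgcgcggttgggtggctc

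An E2F word was found in 7 of 19 promoters of the origin licensing list (36.8%), against 2.8% of 14369 promoters of genes on the array and 1.91% of 27025 promoters in the RefSeq table. It was in 7.14% of DNA synthesis, 6.25% of spindle and kinetochore and 3.85% of mitotic promoters. The CHR word was in 34.6% of mitotic and 28.1% of spindle and kinetochore promoters, 15.8% of licensing and 10.7% of synthesis promoters, against 11.9% of the genes on the array. CCAAT was in 76.9% of mitotic, 62.5% of spindle, 52.6% of licensing and 46.4% of synthesis promoters, against 35.7%. Mcm6 and Mcm5 each held overlapping E2F words, and Cdk1 held all 3 kinds of word. A match of letters is a description and not a bound site.

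Origin licensing is the loading of the MCM helicase onto DNA before it is copied. Of its 24 measured genes 9 rose and none fell, with a median of 0.54 against 0.04 over all genes. Without replicate 3, 13 rose and the median was 0.76. Mcm6, a helicase subunit whose promoter held 3 E2F words, read 11.06, 10.36 and 7.75 on hepatectomy replicates 1, 2 and 3 and 7.02 and 7.28 on the shams. All 3 were above both shams, but replicate 3 by far the least. Its difference was 2.57 (SE 0.58, adjusted p = 0.013), and 3.56 without replicate 3 (adjusted p = 3.21e-05). Mcm5, another subunit, read 10.83, 10.15 and 7.30 against 7.01 and 7.06, a difference of 2.40 (SE 0.62, adjusted p = 0.0274) that became 3.46 without replicate 3. Mcm4 read 10.00, 10.01 and 8.22 against 7.56 and 7.40, a rise of 1.93 (SE 0.37). Dbf4, the activating subunit of the Cdc7 kinase that fires licensed origins, was not lowest on replicate 3. It read 9.18, 7.94 and 8.45 against 6.58 and 6.60, so replicate 3 was above replicate 2. Its rise was 1.94 (SE 0.35, adjusted p = 0.00292) and 1.97 without replicate 3. Its other, dimmer probe set stood at 0.09. The other members that rose were Cdt1, Gins2, Mcm2, Orc6 and Wdhd1, of which Orc6 did not pass without replicate 3.

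DNA synthesis had the highest share of calls of the replication lists: 16 of 32 genes rose and none fell, with a median of 0.79. Without replicate 3, 23 rose and the median was 1.03. Rrm2 supplies deoxynucleotides, and it read 11.30, 9.93 and 10.37 on the hepatectomy arrays against 6.46 and 7.60 on the shams. It was high on all 3, replicate 3 included, and passed under each omission of 1 array (adjusted p = 0.00189 with all arrays, 0.00264 without replicate 3). Its partner Rrm1 read 10.23, 9.58 and 8.74 against 8.24 and 8.35, a rise of 1.22 (SE 0.32). Lig1, the ligase that joins Okazaki fragments, read 9.85, 8.96 and 8.05 against 7.44 and 7.88, a rise of 1.29 (SE 0.30). Pcna, the sliding clamp of the replicative polymerases, read 12.72, 11.96 and 11.50 against 10.76 and 11.19, a rise of 1.09 (SE 0.26, adjusted p = 0.0187). Rfc4, a subunit of the complex that loads this clamp, rose by 1.31 (SE 0.30). For these 4 genes replicate 3 lay just above the higher sham. The list's other rises were Chaf1b, Dnmt1, Fen1, Pole3, Prim2, Rfc2, Rfc3, Rpa2, Timeless, Tipin and Uhrf1, of which Pole3 did not pass without replicate 3. Of 17 DNA repair genes 3 rose (Fanca, Rad51ap1 and Rad54l), and 8 did without replicate 3, with Fanca at an adjusted p of 0.0515. One other probe set of Rad51ap1 went the other way, at -0.27.

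Among G1 regulators, 6 of 22 rose and 1 fell. Tfdp1, the dimer partner of E2F factors, read 10.25, 10.16 and 10.04 against 9.35 and 9.26, a rise of 0.85 (SE 0.12, adjusted p = 0.000226). Ccne1, a cyclin that drives entry into S phase, read 9.48, 9.45 and 9.67 against 8.74 and 8.71. It rose by 0.81 (SE 0.23, adjusted p = 0.0388), and 0.74 without replicate 3 (adjusted p = 0.112). Ccne2, its paralog, read 6.75, 6.59 and 4.89 against 4.68 and 4.66. Cdk4, Cdk6 and E2f1 were the other rises, of which E2f1 passed without replicate 3. Rbl2, a pocket protein of resting cells, fell by 1.02 (SE 0.26), and was at -0.68 without replicate 3 (adjusted p = 0.112). Ccnd1, cyclin D1, did not pass with all arrays at 1.5 (SE 0.54, adjusted p = 0.104). It read 11.60, 11.16 and 8.80 against 9.10 and 8.94, so the groups overlapped only through replicate 3, and without that array the difference was 2.36 (SE 0.41, adjusted p = 0.00175).

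Of 32 mitotic regulators 6 rose and none fell, with a median of 0.89, and 17 rose without replicate 3, with a median of 1.31. Of 38 spindle and kinetochore genes 7 rose, with a median of 0.93, and 23 did without replicate 3, with a median of 1.35. Cdk1, the kinase that starts mitosis, read 11.33, 9.47 and 8.19 against 7.77 and 7.80, a rise of 1.88 (SE 0.50, adjusted p = 0.0326) and 2.62 without replicate 3. Cdca8, a subunit of the chromosomal passenger complex, read 10.05, 8.74 and 7.46 against 6.63 and 6.73, a rise of 2.07 (SE 0.47). Cks1b, a small protein that binds cyclin-dependent kinases, was even over the arrays. It read 11.63, 11.39 and 11.21 against 10.25 and 9.88, a rise of 1.34 (SE 0.27). Mad2l1, a spindle checkpoint protein, rose by 1.44 (SE 0.33).

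Smc2, a condensin subunit, read 9.51, 8.39 and 6.23 against 6.14 and 5.92, a rise of 2.01 (SE 0.52). Its other probe sets did not agree, and 3 of 4 stood between -0.13 and -0.02. Smc4, its partner, rose by 1.52 (SE 0.39), and Nusap1, a spindle protein, by 1.73 (SE 0.40). Zwilch, a kinetochore protein, rose by 1.58 (SE 0.41). Several markers of dividing cells did not pass with all arrays. Top2a, the topoisomerase of dividing cells, read 9.69, 8.26 and 6.32 against 6.36 and 6.18 (1.83, SE 0.57, adjusted p = 0.0646). Its other probe sets stood at -0.02 and 0.06. Mki67, the proliferation antigen Ki-67, read 10.00, 8.04 and 6.14 against 5.96 and 6.09 (2.03, SE 0.67, adjusted p = 0.0761). Ccna2, cyclin A2, read 9.83, 8.76 and 7.50 against 7.28 and 7.50 (1.31, SE 0.40, adjusted p = 0.0585). On replicate 3 all 3 markers were at or near sham level, and without it each passed, at 2.71, 2.99 and 1.91. Foxm1, a factor that drives mitotic genes, stood at 0.22 (SE 0.14) and did not pass either way.

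**Figure D2:**
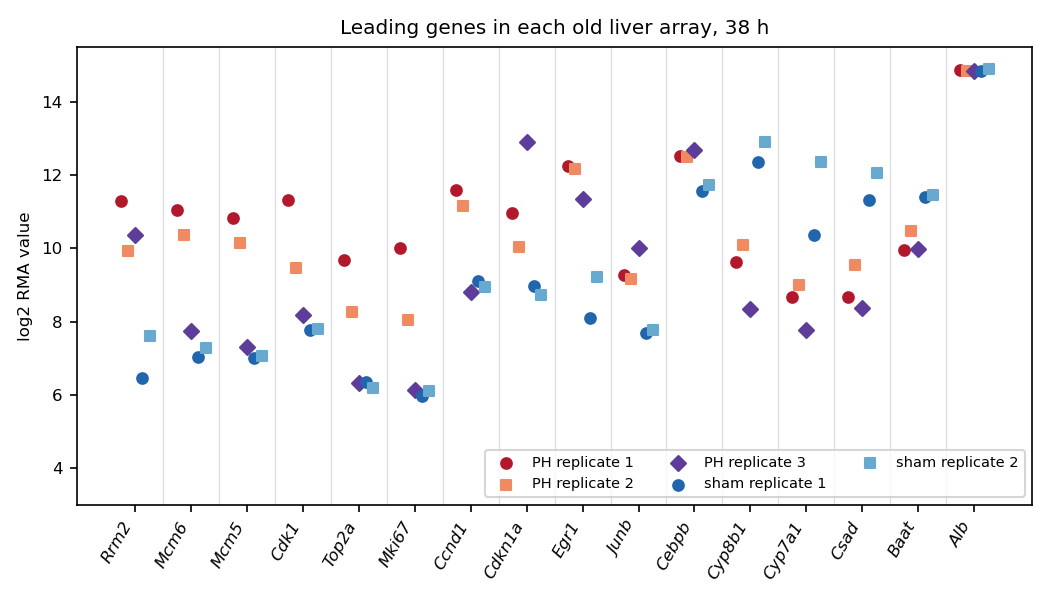
Log2 RMA values of 16 genes on each of the 5 old liver arrays at 38 h, with 1 point for each array. Hepatectomy replicate 3 lay with the shams for Top2a, Mki67 and Ccnd1, was the highest array for Cdkn1a at 12.90, and was the lowest for Cyp8b1 at 8.35.

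Cdkn1a, the p21 inhibitor of cyclin-dependent kinases and a p53 target, read 10.97, 10.04 and 12.90 against 8.98 and 8.73. All 3 hepatectomy arrays were above the shams, replicate 3 the most. It rose by 2.45 (SE 0.46, adjusted p = 0.00378) and by 1.65 without replicate 3 (adjusted p = 0.00284). It was the 1 rise of 8 CDK inhibitors. Of 18 p53 targets 4 rose and 2 fell, and without replicate 3 only 1 rose. Aen, a nuclease induced by p53, rose by 1.08 and Phlda3 by 0.65, while Bbc3, which encodes the cell death protein Puma, fell by 0.83. Without replicate 3 they were at 0.68, 0.64 and -0.73, and none of the 3 passed (adjusted p = 0.161, 0.0937 and 0.082).

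Early response factors are induced within minutes of surgery. Of 22 measured, 4 rose and none fell, with a median of 0.69, and 3 rose without replicate 3, with a median of 0.47. On every hepatectomy array 14 were above both shams, as were 18.6% of all genes. Egr1, a zinc finger factor, read 12.24, 12.16 and 11.35 against 8.10 and 9.22, a rise of 3.26 (SE 0.72, adjusted p = 0.0117). Fos read 9.75, 9.36 and 8.92 against 7.36 and 7.34, a rise of 2.00 (SE 0.56, adjusted p = 0.0407). Junb, which pairs with Fos in AP-1, read 9.28, 9.15 and 10.01 against 7.68 and 7.78, a rise of 1.75 (SE 0.31, adjusted p = 0.00245). Ier2 rose by 0.84 (SE 0.21), and was at 0.73 without replicate 3 (adjusted p = 0.0719). Against untreated old liver (38.4% of all genes called) the same hepatectomy arrays stood at 0.59 for Egr1, -0.26 for Fos and 0.01 for Junb, and none of the 3 passed. The 38 h shams lay below untreated liver, at -2.66 for Egr1, -2.26 for Fos and -1.74 for Junb, each past the threshold, and 9 of the 22 genes fell there (7.26% of all genes fell). These comparisons share arrays with the main one.

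Among liver transcription factors, 2 of 21 rose and 1 fell. Cebpb, which is active in regenerating liver, read 12.53, 12.49 and 12.68 against 11.56 and 11.74, a rise of 0.92 (SE 0.14, adjusted p = 0.000628) that passed under each omission of 1 array. Against untreated old liver the same hepatectomy arrays stood at 0.263 for Cebpb and did not pass. The 38 h shams lay below untreated liver, at -0.655, which passed. Cebpd rose by 1.31 (SE 0.32), but its other probe set stood at -0.01, and without replicate 3 it did not pass (adjusted p = 0.0922). Against untreated liver Cebpd stood at 0.14 after hepatectomy, which did not pass, and at -1.166 in the shams, which did. Cebpa, the factor of resting hepatocytes, read 12.18, 12.65 and 11.79 against 12.78 and 12.97. It fell by 0.67 (SE 0.19, adjusted p = 0.0402), and stood at -0.46 without replicate 3 (adjusted p = 0.184). Hnf4a, the master factor of hepatocytes, was at -0.01 (SE 0.09), while its 3 other probe sets stood between -0.29 and -0.23. Smarca2, the Brm subunit of chromatin remodelling complexes, read 8.97, 9.52 and 7.23 against 9.56 and 9.65 and did not pass.

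Of 21 bile acid genes measured 7 fell and none rose, with a median of -0.76, and 4 fell without replicate 3, with a median of -0.35. Cyp8b1 read 9.62, 10.09 and 8.35 against 12.37 and 12.91. All 3 hepatectomy arrays lay far below the shams (adjusted p = 0.00762, and 0.0292 without replicate 3). Cyp7a1, the rate-limiting enzyme of bile acid synthesis, read 8.68, 9.0 and 7.76 against 10.37 and 12.37. The shams were far apart, and every hepatectomy array was below both. It fell by 2.89 (SE 0.72, adjusted p = 0.0233), and its -2.53 without replicate 3 did not pass (adjusted p = 0.0776). Baat, which conjugates bile acids to taurine and glycine, read 9.96, 10.48 and 9.97 against 11.41 and 11.46. It had the smallest adjusted p of the genes named here, at 2.42e-05, with a fall of 1.30 (SE 0.14) that passed under each omission of 1 array. Akr1d1, the steroid 5-beta-reductase, read 10.28, 10.53 and 7.54 against 11.16 and 11.70, a fall of 1.98 (SE 0.55) that became -1.03 without replicate 3 and did not pass. Cyp27a1, Nr1h4 (the bile acid receptor FXR) and Slc27a5 were the other falls, of which Nr1h4 did not pass without replicate 3.

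Amino acid and urea genes fell in 9 of 28 cases with no rise, at a median of -0.67. Without replicate 3, 5 fell and the median was -0.34. Csad, which makes the taurine used in bile acid conjugation, read 8.66, 9.54 and 8.38 against 11.32 and 12.07. It fell by 2.83 (SE 0.48, adjusted p = 0.00173) and by 2.59 without replicate 3. Hal, the histidine-degrading enzyme, read 10.54, 10.71 and 9.33 against 11.84 and 12.12, a fall of 1.79 (SE 0.36). Prodh, which breaks down proline, read 11.21, 11.24 and 8.97 against 11.76 and 12.71. Its fall of 1.76 (SE 0.50) became -1.01 without replicate 3 and did not pass. Asl, of the urea cycle, fell by 1.28 (SE 0.31), and was at -1.08 without replicate 3 (adjusted p = 0.0778). Aass, Cdo1, Gldc, Gnmt and Otc were the other falls, of which Aass and Gldc did not pass without replicate 3.

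Drug metabolism genes fell in 4 of 28 cases with no rise, at a median of -0.69, and in 3 without replicate 3, at a median of -0.33. Cyp2f2 read 13.13, 12.65 and 11.44 against 14 and 13.86, a fall of 1.52 (SE 0.35), and was at -1.04 without replicate 3 (adjusted p = 0.0542). Cyp2d10 was even, at 12.91, 12.99 and 12.97 against 13.48 and 13.27, a fall of 0.42 (SE 0.10). Cyp2d22 and Cyp3a13 fell by 0.87 and 0.72. Cholesterol synthesis had a median of -0.66 with 1 fall among 20 genes, Tm7sf2, at -0.74 (SE 0.13). Without replicate 3 its median was 0.03, since that array alone stood at -2.0. Of 22 genes of fatty acid synthesis 3 fell. Acacb, acetyl-CoA carboxylase 2, read 8.93, 8.93 and 9.08 against 9.45 and 10.90 (-1.20, SE 0.28). Acss2 and Mlxipl were the others, at -2.13 and -0.71, and neither passed without replicate 3.

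**Figure D3:**
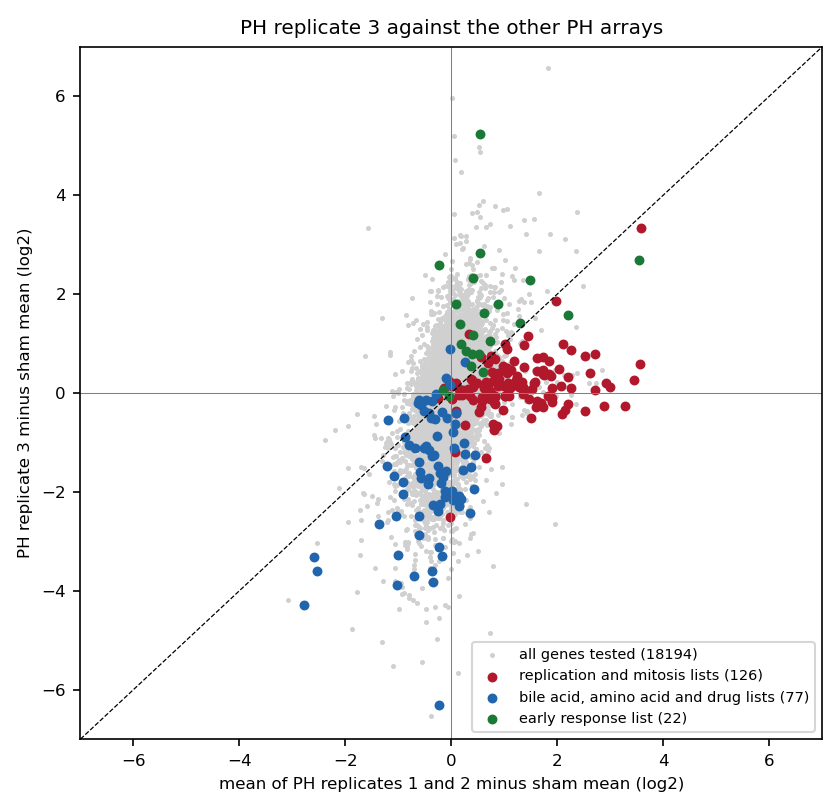
Each point is a gene: its log2 value on hepatectomy replicate 3 minus the sham mean (vertical) against the mean of hepatectomy replicates 1 and 2 minus the sham mean (horizontal), with the line of equality dashed. Most replication and mitosis genes lie right of 0 and near 0 vertically, while Rrm2 lies on the line, and most bile acid, amino acid and drug genes lie lower vertically than horizontally.

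Among 19 glucose genes 2 rose and 1 fell, and among 22 growth hormone and insulin genes 2 fell. Pfkfb3, which makes the activator of glycolysis fructose 2,6-bisphosphate, read 9.25, 9.75 and 8.48 against 7.44 and 6.86, a rise of 2.01 (SE 0.40, adjusted p = 0.00535). Its other probe set stood at 0.09. Against untreated old liver Pfkfb3 stood at 0.408 after hepatectomy, which did not pass, and at -1.604 in the 38 h shams, which did. Ldha rose by 0.42 and Pygl, liver glycogen phosphorylase, fell by 1.16, and was at -0.74 without replicate 3 (adjusted p = 0.0689). The insulin receptor gene Insr fell by 1.04 (SE 0.18), but both of its other probe sets were above 0, at 0.10 and 0.20. Irs1, its docking protein, fell by 1.07 (SE 0.28), and was at -0.80 without replicate 3 (adjusted p = 0.137). Igf1 was at 0.03 (SE 0.08), while its 3 other probe sets stood between -0.69 and -0.35. Igfbp1, an insulin-repressed binding protein, was at 1.58 (SE 0.71) and did not pass, with shams of 10.15 and 12.22. Among growth factor genes, Tnfrsf1a, the TNF receptor, rose by 0.60. Vegfa, its receptor Kdr and Hgfac, the activator of hepatocyte growth factor, fell by 0.78, 0.67 and 0.49. Without replicate 3 only Hgfac of these 4 passed, and Tnfrsf1a, Vegfa and Kdr were at 0.40, -0.58 and -0.47 (adjusted p = 0.184, 0.107 and 0.209). Gnl3 and Nhp2 rose among 26 ribosome biogenesis genes, and Lcn2 (lipocalin 2) was the 1 rise of 22 acute phase genes, at 1.90 (SE 0.52). Without replicate 3 no ribosome biogenesis gene passed, with Gnl3 at 0.55 and Nhp2 at 0.79, and Lcn2 was at 1.82 (adjusted p = 0.0837). Saa2 was at 0.35 (SE 0.57). Cidea, a lipid droplet protein, read 9.62, 9.31 and 9.99 against 7.51 and 6.72, a rise of 2.53 (SE 0.56).

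Other large rises were Tubb6, a beta-tubulin, at 2.80 (SE 0.44), which read 11.30, 10.38 and 12.13 against 8.20 and 8.74, and Mfsd2a, a lipid transporter, at 2.32. Ly6d, Thbd (thrombomodulin) and 1810055G02Rik rose by 2.22, 2.09 and 2.06. Thbd and Ly6d were far higher on replicate 3 than on the other 2 hepatectomy arrays, and Thbd, Ly6d and Mfsd2a did not pass without it, at 1.38, 1.56 and 1.87. Other large falls were Upp2, a uridine phosphorylase, at -3.44 (SE 0.76), which read 7.04, 7.30 and 6.06 against 9.19 and 11.29, and Sucnr1, the succinate receptor, at -2.84. Coq8a, Dnase2a, Etnppl, Mup10, Afmid and 9130409I23Rik were between -2.53 and -1.99. Sucnr1 was at -1.87 without replicate 3 (adjusted p = 0.127), and Etnppl, Mup10 and 9130409I23Rik did not pass without it either. One further probe set each of Afmid, Acss2, Mcm6 and Tubb6 stood within 0.02 of 0. Sucnr1 read 6.15 on replicate 3 against 9.52 and 8.61 on the other hepatectomy arrays.

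No gene passed in the lists of TGF-beta and activin signalling, heat shock, ER stress, antioxidant, interferon, chemokine, fatty acid oxidation, male-biased, female-biased, iron and matrix genes. Cxcl1, a neutrophil chemokine, was at 1.55 (SE 0.51, adjusted p = 0.0769).

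Of 12 hepatocyte markers 10 were measured, none passed, and their mean level was 14.34 to 14.53 on hepatectomy and 14.53 to 14.57 on sham arrays. Alb, serum albumin, was at 14.84 to 14.89 on all 5 arrays. Of the 10 hepatocyte markers 5 were below both shams on every hepatectomy array, as were 13.8% of all genes, and none was above both. Their medians against the sham mean were -0.035, -0.036 and -0.189 on hepatectomy replicates 1, 2 and 3. Among 12 marker lists the calls were Cd8a (T and NK, up by 0.42), Kdr (endothelial) and Fabp2 (pancreas and gut, up by 1.10), and Cd8a was at -0.03 with its most variable probe set. Without replicate 3 Cd8a and Kdr did not pass. Mean levels of the 14 Kupffer cell markers were 8.86 to 9.59 on hepatectomy and 9.36 to 9.44 on sham arrays, and those of the 10 neutrophil markers 7.96 to 8.80 and 7.77 to 7.84. Replicate 3 stood apart in single markers. Cd5l, of Kupffer cells, read 8.17 there and 10.75 to 11.72 on the other 4 arrays. S100a9, of neutrophils, read 11.28 against 8.04 to 8.49, and Fabp4, of adipocytes, 12.33 against 8.53 to 9.66. Their lists moved far less. Against the sham mean, the Kupffer list medians on hepatectomy replicates 1, 2 and 3 were 0.11, -0.40 and -0.47. They were 0.14, 0.15 and 0.30 for neutrophils and -0.095, -0.186 and -0.161 for adipocytes. The part of these markers in the results was not tested.

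The response at 38 h was set against those at 24 and 48 h in old liver, each with its own shams. Against 24 h, limma called 0 genes, with 1643 at an unadjusted p under 0.05, 150 without replicate 3 and 265 with array weights fitted gene by gene. At 24 h, 1 of 32 mitotic regulators rose (7.52% of all genes rose) and the median was -0.03. The 38 minus 24 h difference was 1.98 for Cdk1 (SE 0.71) and 1.69 for Rrm2 (SE 0.84), and neither passed.

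At 48 h, 29 of 32 mitotic regulators rose (8.46% of all genes) and the median was 2.69. The difference between the 48 and 38 h responses passed for 369 genes, 187 larger at 48 h (1.03%) and 182 smaller (1.0%), and centring the arrays made 64.4% of its calls higher, against 50.7%. It passed for 14 of the 32 mitotic regulators and 9 of the 38 spindle genes, each with the higher response at 48 h. It passed for none of the licensing or DNA synthesis genes. Ube2c, a ubiquitin-conjugating enzyme of mitotic exit, was at 1.56 at 38 h and 4.96 at 48 h, a difference of 3.40 (SE 0.90, adjusted p = 0.047). Ect2 and Nuf2, of cytokinesis and the kinetochore, differed by 3.32 and 3.20. Mcm6 had a difference of 0.58 (SE 0.82). Without 38 h hepatectomy replicate 3 it passed for 179 genes. With the 10 arrays compared alone it passed for 0 in limma, with 2946 at an unadjusted p under 0.05, and leaving out single arrays gave 14 (without 48 h sham replicate 2) to 723 (without 38 h hepatectomy replicate 2).

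**Figure D4:**
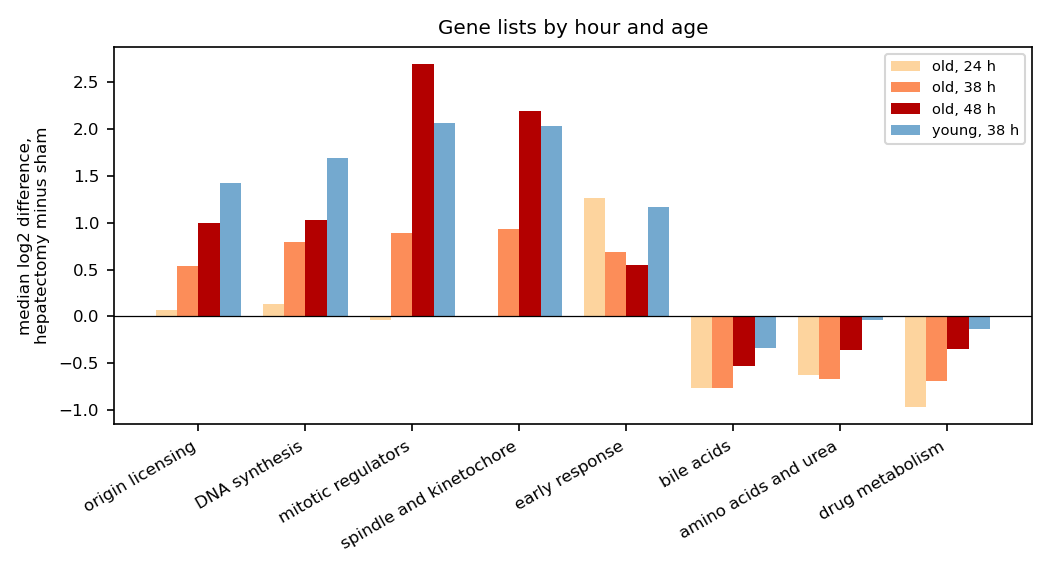
Median log2 difference between hepatectomy and sham over each gene list, for old liver at 24, 38 and 48 h and young liver at 38 h. The mitotic regulators stood at -0.03, 0.89 and 2.69 in old liver at 24, 38 and 48 h and at 2.06 in young liver at 38 h, where the sham is 1 array.

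Clock genes differed between the hours as well, where hours since surgery and time of day cannot be told apart. Dbp, an output of the circadian clock, read 8.91, 9.93 and 9.10 after hepatectomy and 6.55 and 7.29 after sham surgery at 38 h, above both shams at 2.39 (SE 0.78, adjusted p = 0.075). At 24 h its difference was -2.945. At 48 h it was -3.07, so the 48 and 38 h responses differed by -5.46 (SE 1.10, adjusted p = 0.0179). Nr1d1 and Nr1d2, the Rev-erb repressors, differed by -2.04 and -2.17, and Arntl, the clock activator, by 2.41. At 38 h Arntl stood at -1.28 and did not pass, and its other probe set stood at 0.26. At 38 h itself Per1 rose by 1.56 (SE 0.35) and Hlf fell by 0.49, of 19 clock genes, and neither passed without replicate 3 (adjusted p = 0.0554 and 0.204). The sham level of Dbp at 38 h was below untreated liver by a log2 difference of -2.77.

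In young liver at 38 h the median was 2.06 for the mitotic regulators, with 25 of 32 rising, and 1.69 for DNA synthesis, with 29 of 32 rising (4.6% of all genes rose). The difference between ages passed for 16 genes (0.0879%), 9 of them more positive in old liver (0.0495%) and 7 more negative (0.0385%), none of them on the replication or mitosis lists, and for 4 without replicate 3. It passed for 0 with dim genes left out, with 1476 at an unadjusted p under 0.05. For Rrm2 the old minus young difference was -2.11 (SE 0.96, adjusted p = 0.316), for Mki67 -2.15 (SE 1.07) and for Ccnd1 -1.25 (SE 0.87), all with the lower response in old liver and none past the threshold. The young sham at 38 h was a single array, assumed to vary like the other groups. Among the 16 genes that passed, Pfas, an enzyme of purine synthesis, had the most negative difference at -1.30 (adjusted p = 0.0345), with 0.40 in old and 1.70 in young liver.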

How the data were processed

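Liver RNA of 35 arrays in 14 groups was measured. The authors deposited log2 values, and RMA is the tool that the submitters' processing notes name; no version is given in the sources used here. Of 45101 probe sets 34958 have 1 gene symbol in GEO's platform annotation, and for each of 18194 genes the brightest probe set on average was used, so levels of different genes are not compared. limma 3.58.1 (R 4.3.3) fitted group means over all 35 arrays, with empirical Bayes variances (21 residual degrees of freedom) and Benjamini-Hochberg adjustment over all genes at 0.05. No block was used: only replicate numbers 1 and 2 are shared between the groups, and same-numbered arrays did not deviate together (r = -0.064). The fit was tested on simulated data in which each gene had the same spread in all groups. That test does not cover a group whose arrays lie far apart. The number of arrays limits the precision.

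The comparison, gene lists and named genes were chosen with earlier results of these data known. In each list the members named are up to 4 genes past the threshold with the largest differences, or else the 2 of highest level; added are the 12 largest rises and 12 largest falls without overlap, a panel of 23 regeneration genes, and 5 genes each way in each difference of responses. Lists are described by counts and medians and were not tested. Members beyond 4 in a list are named only to complete its count, after their values were seen. Alternatives were the probe set, filter, scaling, variance model, array weights, arrays fitted, control group, block and single arrays left out.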

Additional observations from a re-analysis of the deposited data

Results flagged for a closer look

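The differences between responses that passed the test are listed here for a closer look; each was tested as an interaction in limma. Between 48 and 38 h in old liver the response of 369 genes differed. The response was more positive at 48 h for Ube2c (log2 difference 3.40), Ect2 (3.32), Nuf2 (3.20), Depdc1a (2.94) and Ccnb2 (2.90). It was more negative at 48 h for Dbp (-5.46), Nr1d2 (-2.17), Nr1d1 (-2.04), Cd163 (-1.44) and Pnldc1 (-1.12). These calls depended on single arrays. Of the genes named for this difference 7 still passed without 48 h hepatectomy replicate 1, 6 without replicate 2 and 6 without replicate 3. None passed with only the arrays of the groups compared. Between old and young liver at 38 h the response of 16 genes differed. The response was more positive in old liver for Car9 (1.08), Muc3 (0.95), 1700018A04Rik (0.94), Zfp536 (0.94) and Fads2b (0.86). Zfp536 also passed in the main comparison, at 0.38, and its other probe set stood at 0.07. The response of Car9 was -0.04 in old and -1.12 in young liver. It was more negative in old liver for Pfas (-1.30), Rpl22l1 (-1.27), Mbnl2 (-1.26), Cnot7 (-1.10) and Pcbp4 (-0.97). The response of Cnot7 was 0.02 in old and 1.12 in young liver. The young sham of this comparison is 1 array. With untreated liver as control none of the genes named for it passed, Pfas included, and the Car9 difference was -0.048. No gene's values within a group were tested for an outlying array, since groups held at most 3.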

How the results depend on the processing

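Single arrays decide much of the result. For the main comparison, leaving out 1 array gave 96 to 1670 calls. It gave 147 with old arrays only, 0 with the 5 arrays only, 2320 with all 6 old shams and 6988 with untreated liver as control. The other settings kept the count within 1.5 times of 871, the replicate block included at 667. For 38 against 24 h, leaving out 1 array gave 0 to 150 calls, and leaving out both old hepatectomy arrays that stand apart gave 96. For 48 against 38 h it was 14 to 723, with 18 from old arrays only, 0 from the arrays compared, 227 with quantile normalization repeated and 200 without dim genes, and the block gave 263. For age it was 1 to 97, with 0 without dim genes, 1 with the arrays compared, 1 with the replicate block, 34 for every probe set, 28 with quantile normalization repeated, 26 with untreated liver as control and 54 without both apart arrays.

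Limma's array weights by REML stopped without converging, and gave 1 array of old liver at 24 h a weight of 20.6. They gave 990 calls for the main comparison, 1826 for 38 against 24 h, 1205 for 48 against 38 h and 209 for age. The gene by gene method, added after these counts were seen, gave 973, 265, 1150 and 40. Leaving out both arrays that stand apart was also chosen after seeing the data.

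Of the 83 named genes that passed, 8 passed without sham replicate 2, 33 without sham replicate 1, 48 without hepatectomy replicate 3, and 18 with old arrays only. Of 3651 values of named genes under alternatives 111 changed sign, and in 103 of these the value passed with neither setting. The values below are log2 differences of the main comparison. With all 6 old shams as control they were Dbp -0.005, Elane -0.052, Iigp1 -0.338, Nr1d1 -0.388, Nr1d2 -0.127, Upk1b 0.076 and Xbp1 -0.006. With median centring they were Cnot7 -0.014, Epcam -0.0, Igf1 -0.01, Iigp1 -0.021 and Mmp14 -0.035. With the mean of a gene's probe sets they were Epcam -0.15, Fmo2 -0.234, Igf1 -0.374, Mbnl2 -0.087 and Mgst1 0.071. With the most variable probe set they were Cd8a -0.034, Epcam -0.338, Fmo2 -0.778, Igf1 -0.688 and Mgst1 0.2. With quantile normalization repeated they were Acaa2 0.01, Gstp1 0.058, Hnf4a 0.144 and Mgst1 0.004. With the block they were Gstp1 0.0 and Iigp1 -0.024. With array weights they were Acaa2 0.117, Alas2 0.195, Gstp1 0.027, Hnf4a 0.048, Iigp1 -0.043, Inhbc 0.513, Mmp14 -0.144 and Xbp1 -0.014. With gene by gene weights they were Acaa2 0.114, Alas2 0.193, Gstp1 0.032, Hnf4a 0.049, Iigp1 -0.045, Inhbc 0.491, Mmp14 -0.137 and Xbp1 -0.015. With untreated liver as control they were Adam9 -0.315, Cd163 -0.075, Cnot7 -0.299, Dbp -0.381, Fos -0.26, Hspa5 -0.038, Hspa8 -0.12, Hspd1 -0.149, Iigp1 -0.602, Krt19 0.544, Mbnl2 -0.447, Muc3 0.089, Nr1d1 -0.138, Nr1d2 -0.671, Pfas -0.155, Rpl22l1 -0.056, Tspan8 0.756, Upk1b 0.508 and Xbp1 -0.048. Without replicate 3 and 24 h replicate 1 they were Acaa2 0.161, Alas2 0.248, Cd5l 0.048, Gstp1 0.027, Hnf4a 0.056, Iigp1 -0.049, Inhbc 0.648, Mmp14 -0.177, Upk1b 0.01 and Xbp1 -0.034. Leaving out 1 array, the sign changed for Acaa2 -0.301 to 0.161, Adam9 -0.004 to 0.159, Alas2 -0.424 to 0.248, Alb -0.042 to 0.008, Car9 -0.08 to 0.006, Cd5l -1.73 to 0.048, Cnot7 -0.125 to 0.123, Cyp4a14 -0.525 to 1.966, Gstp1 -0.068 to 0.036, Hnf4a -0.056 to 0.056, Hspa5 -0.079 to 0.858, Iigp1 -0.068 to 0.103, Inhbc -0.662 to 0.648, Krt19 -0.227 to 0.085, Mbnl2 -0.067 to 0.156, Mmp14 -0.177 to 0.135, Muc3 -0.059 to 0.043, Mup3 -0.527 to 0.238, Rpl22l1 -0.073 to 0.429, Smad4 -0.435 to 0.01, Upk1b -0.534 to 0.227 and Xbp1 -0.049 to 0.275. The cause was not tested.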
